A study of Mus musculus with 6 samples.

Results

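The 10 genes described here encode proteins that hepatocytes secrete into the blood, namely *Alb*, *Afp*, *Apoa1*, *Apoa2*, *Apob*, *Apoe*, *Ttr*, *Trf*, *Fgb* and *Ahsg*. They were chosen by gene symbol, and all 10 were found among the 53465 genes of the count table. RNA was sequenced from 3 Myc_Utx and 3 Myc_p53 cell lines, each grown from a liver tumour of a different mouse, so each line counts as 1 biological replicate. In both groups the tumours had been induced in adult female C57BL/6 mice by injecting plasmids into the tail vein under pressure, which delivers DNA to a fraction of hepatocytes. Both groups received a Sleeping Beauty transposon carrying Myc together with a plasmid for Cas9 and a guide RNA, directed against *Kdm6a* (also called *Utx*, a histone H3K27 demethylase) in Myc_Utx and against *Trp53* in Myc_p53. Both guides therefore make a mutant group, and no line with Myc alone and no liver tissue was analysed here. The lines had been dissociated from whole tumour tissue and passaged on collagen-coated plates until no other cell type could be seen by eye, so they descend from transformed cells in culture and not from resting hepatocytes. Whether a line is 1 clone is not given in the sources used here. The lines carry their labels, 2A, 2B and 2D for Myc_Utx and 1, 2 and 3 for Myc_p53.

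Plasma proteins are the main secretory product of the liver, and their genes are among the most strongly transcribed of the adult hepatocyte. Their promoters and enhancers are classical targets of a network of factors that includes HNF4, FOXA and C/EBP. *Afp* is made by the fetal liver, is silenced after birth and can return in liver tumours, whereas the other genes of the group stay active in the adult. Cultured hepatocytes and poorly differentiated liver tumours often lose this output.

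Promoters are shown for 5 of the genes. *Alb* and *Afp* are the adult and fetal carriers, adjacent on the chromosome, and *Fgb*, *Apob* and *Apoe* are the 3 genes with the most counts. Each sequence is RefSeq (GRCm38.p6), runs 5′ to 3′ on the strand of the gene and spans 250 bases before to 50 bases after an annotated start. Capitals mark TATAAA, the TATA box letters, searched on the gene strand.
Alb, chr5:90460620-90460919, plus strand: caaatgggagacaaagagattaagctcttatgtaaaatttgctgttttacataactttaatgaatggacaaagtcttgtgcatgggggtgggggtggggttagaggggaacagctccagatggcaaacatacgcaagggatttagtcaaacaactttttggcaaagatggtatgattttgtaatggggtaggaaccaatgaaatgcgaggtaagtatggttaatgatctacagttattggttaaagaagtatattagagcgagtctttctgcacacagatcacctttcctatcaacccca
Afp, chr5:90490464-90490763, plus strand: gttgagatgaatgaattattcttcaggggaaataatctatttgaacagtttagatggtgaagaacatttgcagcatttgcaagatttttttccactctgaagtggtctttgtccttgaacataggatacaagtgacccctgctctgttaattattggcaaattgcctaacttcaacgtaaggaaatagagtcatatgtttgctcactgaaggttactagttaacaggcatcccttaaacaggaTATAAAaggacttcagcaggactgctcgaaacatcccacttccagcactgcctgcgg
Fgb, chr3:83049814-83050113, minus strand: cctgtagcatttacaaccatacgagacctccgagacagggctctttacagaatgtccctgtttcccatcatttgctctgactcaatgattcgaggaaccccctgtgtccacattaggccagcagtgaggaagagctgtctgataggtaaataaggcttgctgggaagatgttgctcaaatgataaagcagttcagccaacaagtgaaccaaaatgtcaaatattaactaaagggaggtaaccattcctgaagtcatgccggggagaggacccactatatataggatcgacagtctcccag
Apob, chr12:7977427-7977726, plus strand: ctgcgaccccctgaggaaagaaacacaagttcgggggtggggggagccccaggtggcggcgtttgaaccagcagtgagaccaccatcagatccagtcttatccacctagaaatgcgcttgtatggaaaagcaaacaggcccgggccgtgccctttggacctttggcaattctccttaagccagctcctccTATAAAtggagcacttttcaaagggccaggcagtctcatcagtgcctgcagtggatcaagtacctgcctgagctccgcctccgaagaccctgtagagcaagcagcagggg
Apoe, chr7:19699139-19699438, minus strand: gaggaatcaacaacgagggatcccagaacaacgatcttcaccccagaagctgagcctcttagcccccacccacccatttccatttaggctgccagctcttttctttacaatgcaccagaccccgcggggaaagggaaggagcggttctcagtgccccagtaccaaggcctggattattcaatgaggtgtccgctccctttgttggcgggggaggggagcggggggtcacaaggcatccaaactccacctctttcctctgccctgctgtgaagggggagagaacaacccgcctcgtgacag
The TATA box letters lay 60 bases before the RefSeq start of *Apob* and 7 before that of *Afp*, and 8.32% of the 32851 promoters of the RefSeq table held them. These RefSeq starts differ from the gene starts given below for the counted genes, so both distances depend on the annotation. The *Alb*, *Fgb* and *Apoe* windows shown did not hold them, although another annotated *Apoe* promoter did. The HNF4 letters CAAAGTCCA and the C/EBP letters TTGCGCAA were searched on both strands and occurred in 0.475% and 0.183% of promoters. Neither was in a window of the 8 genes with a RefSeq promoter, and *Trf* and *Ttr* were not matched. A match in letters is a description and not a bound site.

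Libraries held 4656103 to 5473042 counted reads in Myc_Utx and 5370608 to 6937497 in Myc_p53. Of 11510 genes tested with the quasi-likelihood F test of edgeR, 805 were higher and 885 lower in Myc_Utx at a Benjamini-Hochberg adjusted p under 0.05, which is 6.99% and 7.69% of genes, and the median log2 fold change of all tested genes was -0.0117. With library sizes scaled by total counts alone, 37.3% of calls were higher in place of 47.6%. *Trp53* had 186 to 251 counts in Myc_p53 against 1239 to 1578 in Myc_Utx. *Kdm6a* had 199 to 244 counts in Myc_Utx and 298 to 440 in Myc_p53, a log2 fold change of -0.39 with an SE of 0.22 and an adjusted p of 0.243 in the same test. The groups did not overlap in raw counts, but they did once scaled to library size, and small insertions or deletions need not lower an mRNA. Throughout, log2 fold changes are Myc_Utx over Myc_p53, so those above 0 stand for more RNA in Myc_Utx.

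The 10 genes took a small share of the counts in all 6 lines. Together they took 72, 96 and 382 counts in Myc_Utx 2A, 2B and 2D and 455, 368 and 727 in Myc_p53 1, 2 and 3. As a share of all counts this ranged from 0.00141% in Myc_Utx 2A (95% Clopper-Pearson interval 0.00111 to 0.00178%) to 0.0105% in Myc_p53 3 (0.00973 to 0.0113%), with means of 0.00379% ± 0.00383 (SD, n = 3) in Myc_Utx and 0.00825% ± 0.00195 (SD, n = 3) in Myc_p53. For scale, the cytoskeletal gene *Actb* alone had 12541 to 31865 counts per line. Such intervals, here and for the ratios given later, cover counting error only. Without Myc_Utx 2D the Myc_Utx mean was 0.00158%, since 353 of the 382 counts of that line, 92.4%, came from *Fgb* and *Ahsg*, and the other 8 genes had 29 counts there. Of the 60 values of 10 genes in 6 lines, 4 were 0, 17 were at or under 3 counts, 25 reached 10 counts and 8 exceeded 100, with a median of 6 and a highest value of 378. *Fgb*, *Apob* and *Apoe* held 76.8% of the 2100 counts. No liver library was analysed here, so how far output fell from that of liver is not measured, and only the level within the lines can be given. In bulk RNA a smaller number of expressing cells and less RNA per cell cannot be told apart.

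**Figure D1:**
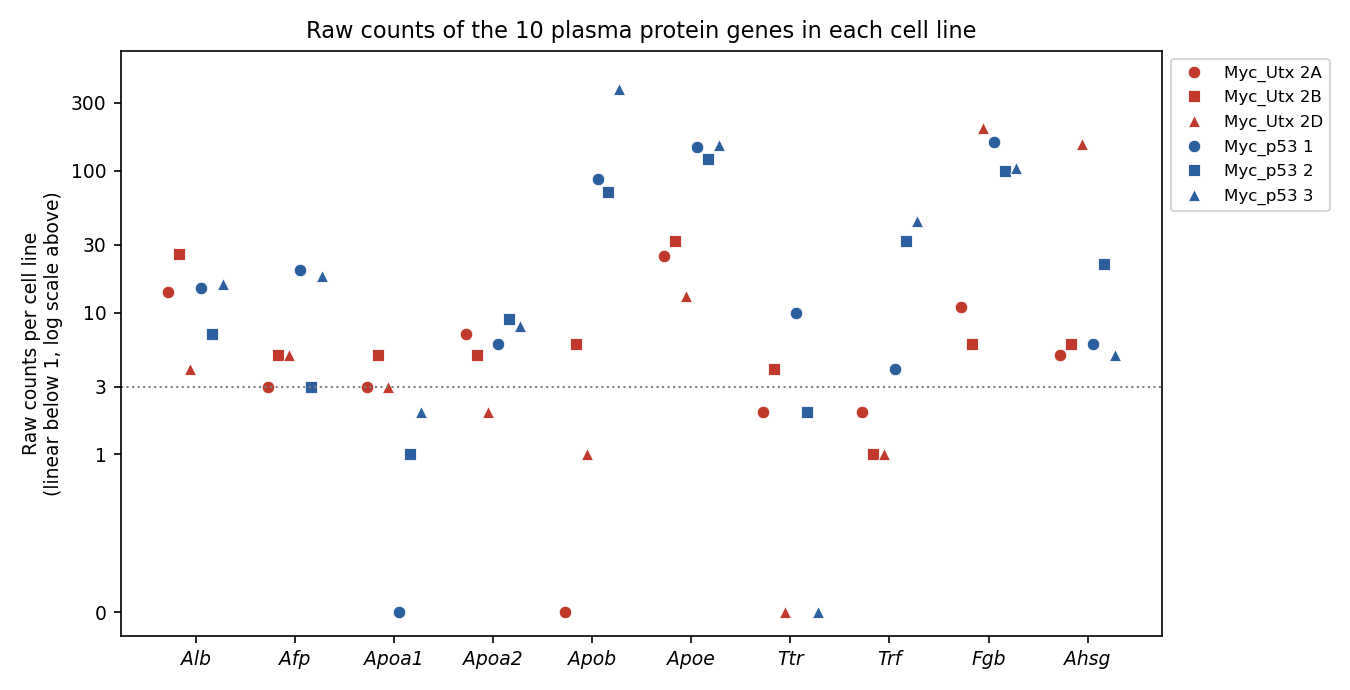
Raw counts (vertical axis, logarithmic above 1 and linear below) of the 10 genes (horizontal axis) in each cell line, with 1 point per line, red for Myc_Utx and blue for Myc_p53, and a dotted line at 3 counts. *Apob*, *Apoe* and *Trf* separate the groups with Myc_p53 above, *Apoa1* separates them with Myc_Utx above, and Myc_Utx 2D stands above the other Myc_Utx lines for *Fgb* (199 counts) and *Ahsg* (154 counts).

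Levels were also scaled for transcript length, as CPM (counts scaled to the TMM-corrected library size) per kilobase, so that genes could be compared with each other. On this scale the median of the 24221 genes with a count was 0.549 and the 90th percentile 22.9. *Ahsg* in Myc_Utx 2D was the only value of any of the 10 genes to pass that percentile, at 23.2. Within that line itself 10.7% of genes were higher than *Ahsg*. Its table length was 1474 bases, whereas its merged exons in the GENCODE annotation cover 2197, and a longer length would lower this value. The highest rank *Ahsg* reached among the 24221 genes was 2586 in Myc_Utx 2D, followed by 4529 for *Fgb* in the same line and 4884 for *Apoe*. The best rank of *Alb* was 9453 and its worst 12815. *Ttr* had 0 counts in Myc_p53 3 and in Myc_Utx 2D, where it shared ranks 19684 and 16003 with all other genes at 0, so these ranks reflect how many genes each library detected. *Actb* lay at 1040 to 1684 CPM per kilobase. *Tbp*, a general transcription factor, lay at 2.09 to 3.79, on a table length of 13399 bases that exceeds a single *Tbp* mRNA and so lowers this value. For 8 of the 10 genes the table length was likewise that of all merged exons, so their values and ranks can be lowered in the same way. *Apoe* in Myc_p53 was at 10.4 ± 0.324 CPM per kilobase (SD, n = 3) and in Myc_Utx at 2.16 ± 0.736.

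**Figure D2:**
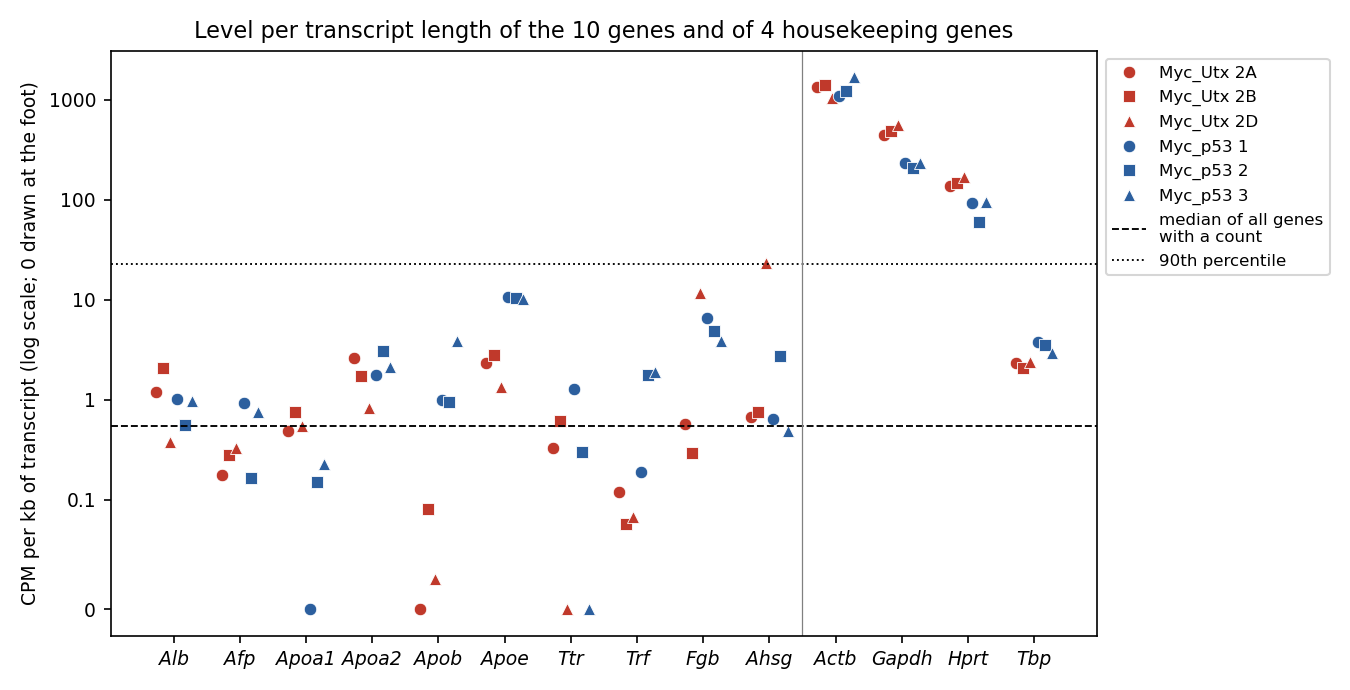
Level per transcript length (CPM per kilobase, log scale with 0 drawn at the foot) of the 10 genes and of 4 housekeeping genes in each line, with 1 point per line, red for Myc_Utx and blue for Myc_p53. The dashed line is the median of all genes with a count (0.549) and the dotted line the 90th percentile (22.9), both taken over each gene's median across lines. Among the 10 genes, *Ahsg* in Myc_Utx 2D alone reached the dotted line.

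Of the carriers, *Alb* (ENSMUSG00000029368, chr5:90460897-90476602, plus strand) encodes albumin, the most abundant plasma protein, which sets oncotic pressure and carries fatty acids and hormones. It had 14, 26 and 4 counts in Myc_Utx 2A, 2B and 2D and 15, 7 and 16 in Myc_p53 1, 2 and 3. The groups overlapped, with both the highest and the lowest value in Myc_Utx. Its level was 2.84 ± 1.98 CPM in Myc_Utx and 1.97 ± 0.590 CPM in Myc_p53 (SD, n = 3). The log2 fold change was 0.52 with an SE of 0.61, a 95% interval of -0.95 to 2.00 and an adjusted p of 0.578 (edgeR), so the difference was within the spread between lines. Without Myc_Utx 2B it was -0.0854, with an adjusted p of 0.945.

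*Afp* (ENSMUSG00000054932, chr5:90490737-90508907, plus strand) begins 14135 bases beyond the end of *Alb* and encodes alpha-fetoprotein, the fetal counterpart of albumin and a marker of liver cancer. It had 3, 5 and 5 counts in Myc_Utx and 20, 3 and 18 in Myc_p53. Myc_p53 1 and 3 were above all Myc_Utx lines, whereas Myc_p53 2 was among them, so the groups overlapped. The summed counts were 13 and 41, a ratio at equal depth of 2.60 for Myc_p53 over Myc_Utx (counting interval 1.37 to 5.30), but the exact permutation test over lines gave a p of 0.4, where 3 lines against 3 allow none below 0.1. *Afp* did not pass the filter on low counts. *Afm*, the gene after *Afp*, which encodes the vitamin E carrier afamin, had 7 counts in Myc_p53 1, 1 in Myc_p53 3 and 0 in the other 4 lines. *Zbtb20* and *Zhx2* encode known repressors of *Afp*. *Zbtb20* fell by 1.79 on the log2 scale in Myc_Utx, with an SE of 0.31 and an adjusted p of 0.0213, from 622 to 1195 counts in Myc_p53 to 143 to 237 in Myc_Utx, and *Zhx2* had a log2 fold change of -0.80 and an adjusted p of 0.102. *Afp* was at 0.880 ± 0.261 CPM in Myc_Utx and 2.08 ± 1.35 CPM in Myc_p53 (SD, n = 3), with overlapping groups, and a link between *Afp* and these 2 genes was not tested.

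*Ttr* encodes transthyretin, which carries thyroxine and the retinol-binding protein. It had 2, 4 and 0 counts in Myc_Utx and 10, 2 and 0 in Myc_p53, so each group had a line at 0 and the groups overlapped, with an exact permutation p of 0.9. *Trf* (ENSMUSG00000032554, chr9:103204001-103230444, minus strand) encodes transferrin, the iron carrier of plasma. It had 2, 1 and 1 counts in Myc_Utx and 4, 32 and 44 in Myc_p53. All 3 Myc_p53 lines were above all Myc_Utx lines, by only 2 counts at the closest pair. The ratio of summed counts at equal depth was 16.5 for Myc_p53 over Myc_Utx (counting interval 6.21 to 62.1), and Myc_p53 3 alone held 55.0% of the counts of its group. *Trf* was not kept by the filter. Fitted with no filter it had a log2 fold change of -3.85 and an adjusted p of 0.0394 (edgeR), and DESeq2 gave -3.98 and 0.0107, whereas the exact permutation p was 0.1, the lowest the design allows. In the GENCODE annotation *Trf* shares 2108 exonic bases with Gm20425, a gene model on the same strand with 0 counts, so reads from those exons may have been left uncounted and its level is uncertain.

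Of the apolipoproteins, *Apob* (ENSMUSG00000020609, chr12:7977648-8016835, plus strand) encodes the large structural protein of chylomicrons and very low density lipoprotein. It had 0, 6 and 1 counts in Myc_Utx and 88, 71 and 378 in Myc_p53. All 3 Myc_p53 lines were far above all Myc_Utx lines, and Myc_p53 3 held 70.4% of the counts of its group. The levels were 0.447 ± 0.593 CPM and 26.8 ± 23.1 CPM (SD, n = 3). The ratio of summed counts at equal depth was 63.4 for Myc_p53 over Myc_Utx (counting interval 30.5 to 158.4). In edgeR the log2 fold change was -5.80 with an SE of 1.07, a 95% interval of -8.36 to -3.23 and an adjusted p of 0.0240. *Apob* passed the filter on low counts only through the Myc_p53 lines.

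*Apoe* (ENSMUSG00000002985, chr7:19696109-19699188, minus strand) encodes the ligand by which remnant lipoproteins are taken up through the LDL receptor family, and macrophages make it as well as hepatocytes. It had 25, 32 and 13 counts in Myc_Utx and 146, 121 and 152 in Myc_p53, and was the only one of the 10 genes with at least 10 counts in every line. The groups did not overlap, and the 3 Myc_p53 lines lay close together at 22.9, 22.3 and 21.5 CPM, a mean of 22.2 ± 0.693 CPM (SD, n = 3) against 4.61 ± 1.57 CPM in Myc_Utx. The log2 fold change was -2.26 with an SE of 0.30, a 95% interval of -2.996 to -1.53 and an adjusted p of 0.0164 (edgeR), a level 4.81-fold lower in Myc_Utx. The sum of the macrophage markers other than *Cd14* moved with it, at 3.38 to 6.72 CPM in Myc_Utx and 47.4 to 122.1 CPM in Myc_p53. Not every marker did, since *Cd68* had 14, 21 and 24 counts in Myc_Utx and 65, 18 and 48 in Myc_p53. Its groups overlapped (adjusted p of 0.300, edgeR), and it made up most of the sum in each Myc_Utx line. The part of these markers in the *Apoe* difference was not tested. The neighbouring apolipoprotein genes *Apoc1*, *Apoc4* and *Apoc2* had at most 2 counts in any line, and *Tomm40* on the other side, which encodes a mitochondrial import pore, had 485 to 1232.

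Leaving out single lines changed the calls for *Apob* and *Apoe*. With Myc_Utx 2A, 2B or 2D or Myc_p53 3 left out, the adjusted p rose above 0.05 for both genes, to 0.0735, 0.0614, 0.0949 and 0.0646 for *Apob* and to 0.0630, 0.0515, 0.0505 and 0.0541 for *Apoe*. The direction held in all 6 such fits, with log2 fold changes of -7.71 to -4.81 for *Apob* and -2.48 to -2.01 for *Apoe*. Over all genes tested those 4 fits also made few calls, since without Myc_Utx 2A only 3 genes were higher and 1 lower.

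*Apoa1* (ENSMUSG00000032083, chr9:46228580-46230466, plus strand) and *Apoa2* (ENSMUSG00000005681, chr1:171225054-171226379, plus strand) encode the main proteins of high density lipoprotein. *Apoa1* had 3, 5 and 3 counts in Myc_Utx and 0, 1 and 2 in Myc_p53. The groups did not overlap, here with Myc_Utx above, but they differed by 1 count at the closest pair. The ratio of summed counts of 11 and 3 at equal depth was 4.44 (counting interval 1.17 to 24.8), the exact permutation p was 0.1, and the fit with no filter gave an adjusted p of 0.236. *Apoa2* had 7, 5 and 2 counts in Myc_Utx and 6, 9 and 8 in Myc_p53, overlapping, with an exact permutation p of 0.4. Next to *Apoa1*, *Apoc3*, *Apoa4* and *Apoa5* had at most 3 counts in any line, so the whole apolipoprotein cluster on chromosome 9 was near the detection limit.

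*Fgb* (ENSMUSG00000033831, chr3:83040141-83049863, minus strand) encodes the beta chain of fibrinogen, which is assembled with the chains from *Fga* and *Fgg* before secretion and forms the clot. It had 11, 6 and 199 counts in Myc_Utx and 160, 100 and 104 in Myc_p53. Myc_Utx 2A and 2B were below all Myc_p53 lines and Myc_Utx 2D was above them, so the groups overlapped, and Myc_Utx 2D held 92.1% of the Myc_Utx counts. The levels were 15.8 ± 24.6 CPM and 19.4 ± 5.26 CPM (SD, n = 3), with a log2 fold change of -0.31, an SE of 1.21, an interval of -3.21 to 2.59 and an adjusted p of 0.875 (edgeR). Without Myc_Utx 2D the log2 fold change was -3.53 with an adjusted p of 0.0539, and it changed sign without Myc_Utx 2A (0.23) or 2B (0.26). *Fga* and *Fgg*, which lie 6514 and 25092 bases from *Fgb*, had far fewer counts. By scaled level both were highest in Myc_Utx 2D and in Myc_p53 1 within their groups, as *Fgb* was, but on too few counts to set an order. *Fga* had 0, 2 and 5 counts in Myc_Utx and 19, 4 and 6 in Myc_p53, and *Fgg* had 0, 4 and 4 and 6, 2 and 1. Per transcript length, *Fgb* stood at 11.6 CPM per kilobase in Myc_Utx 2D and at 6.59, 4.84 and 3.87 in Myc_p53 1, 2 and 3, whereas *Fga* and *Fgg* were at most at 0.990 and 0.450 in any line.

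*Ahsg* (ENSMUSG00000022868, chr16:22892042-22899438, plus strand) encodes fetuin-A, a carrier that keeps calcium phosphate in solution. It had 5, 6 and 154 counts in Myc_Utx and 6, 22 and 5 in Myc_p53. Myc_Utx 2D was above all other lines and held 93.3% of the Myc_Utx counts, whereas Myc_Utx 2A and 2B lay in the range of Myc_p53 1 and 3, so the groups overlapped. The exact permutation p was 0.5, and the fit with no filter gave a log2 fold change of 2.70 with an adjusted p of 0.247. In the GENCODE annotation *Ahsg* shares 62 exonic bases with an antisense model, Gm30505. Gm30505 is not among the counted genes, and the *Ahsg* model of that annotation differs from the counted one, so whether the overlap applies here is not known. The strand setting of the counting is not given in the sources used here. The genes near *Ahsg* include *Fetub*, which encodes fetuin-B, and the kininogen genes *Kng2* and *Kng1*. *Kng2* had 21, 3 and 173 counts in Myc_Utx and 21, 54 and 15 in Myc_p53, *Kng1* had 7, 9 and 136 and 4, 20 and 8, and *Fetub* had 10, 10 and 34 and 4, 14 and 7. All 3 were highest in Myc_Utx 2D, and within Myc_p53 all 3 were highest in Myc_p53 2, as *Ahsg* was. The kininogen genes may share reads, since their sequences are closely related. *Hrg* had at most 1 count in any line, too few to set an order. The chaperone gene *Dnajb11* had 504, 585 and 554 counts in Myc_Utx and 402, 419 and 493 in Myc_p53. Once scaled to library size, *Dnajb11* too was highest in Myc_Utx 2D and, within Myc_p53, in Myc_p53 2. The order was therefore not particular to the plasma protein genes of this region.

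**Figure D3:**
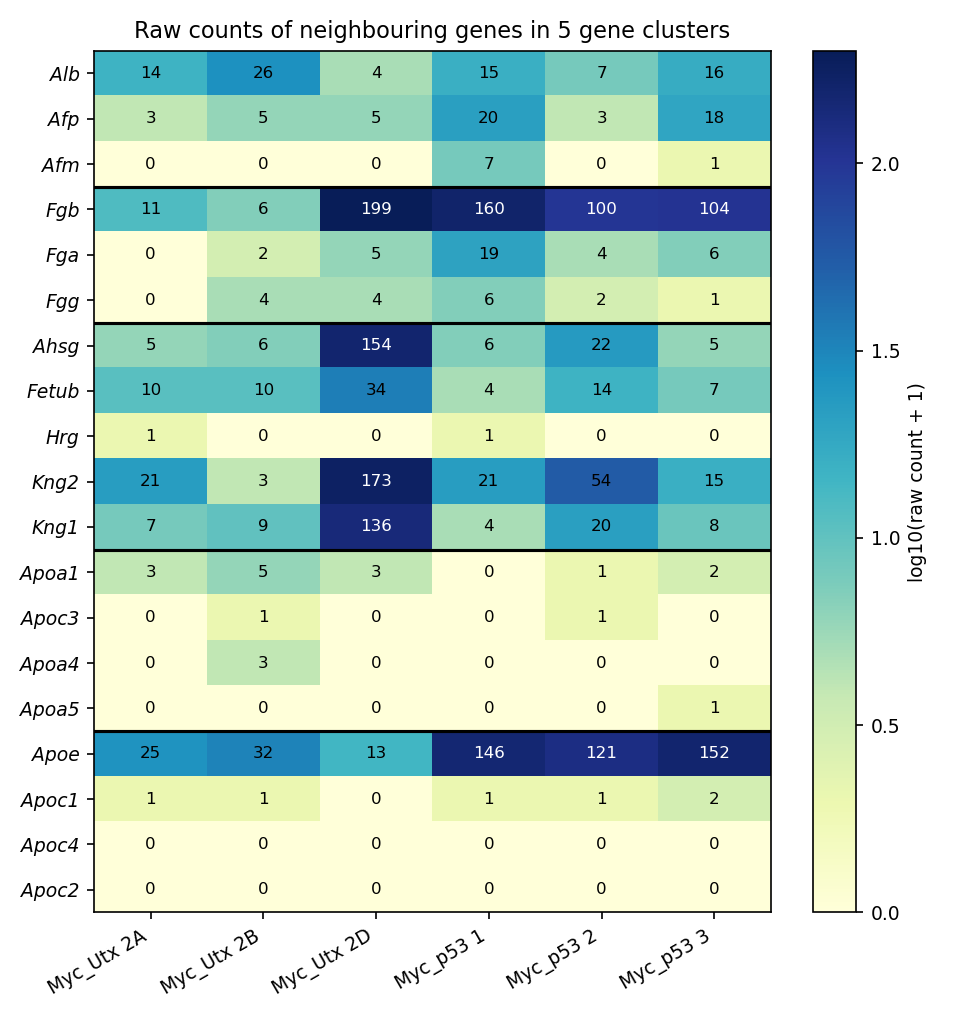
Raw counts (printed in each cell, colour on a log10 scale of count + 1) of members and their neighbouring plasma protein genes in 5 gene clusters (rows, separated by black lines) in the 6 lines (columns). *Fgb* had more counts than *Fga* and *Fgg* in all 6 lines, *Ahsg*, *Kng2* and *Kng1* are all highest in Myc_Utx 2D (154, 173 and 136 counts), and *Apoe* is the only one of its cluster above 2 counts.

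Of the 10 genes, 4 were tested in edgeR, namely *Alb*, *Apob*, *Apoe* and *Fgb*. The 2 lower in Myc_Utx at an adjusted p under 0.05, *Apob* and *Apoe*, compare with 7.69% of all tested genes, and 14.7% of tested genes were called in either direction. None of the 4 was higher, where 6.99% of tested genes were, also at an unadjusted p under 0.05, which *Apob* and *Apoe* alone passed against 35% of tested genes. With DESeq2, *Apob*, *Apoe* and *Trf* were lower, where 11.8% of its genes were, and none of the 10 was higher, with 21.4% of its genes called in either direction. By the order of scaled levels, the groups did not overlap for 2 of the 4 tested genes, both lower in Myc_Utx, against 42.1% of tested genes in either direction, 20.7% lower and 21.4% higher. Among all 10 genes, 3 (*Apob*, *Apoe* and *Trf*) had all Myc_Utx lines below all Myc_p53 lines and 1 (*Apoa1*) had them above, against 15.3% and 11.8% of the genes with a count. The median log2 fold change over the 4 tested genes was -1.29. A gene such as *Apob* could enter the test only through the group in which it was high, so these figures describe the tested genes and are not read as a result about all 10.

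**Figure D4:**
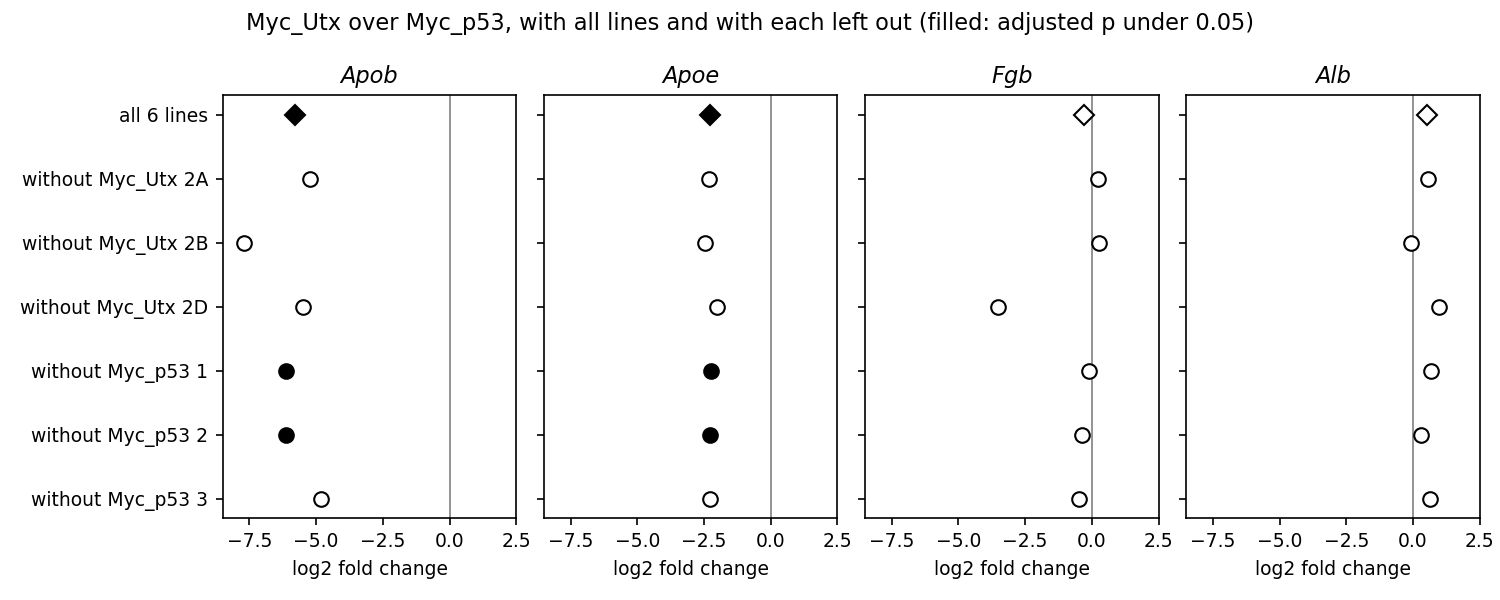
Log2 fold change of Myc_Utx over Myc_p53 (horizontal axis) for the 4 tested genes, with all 6 lines (diamonds) and with each line left out (circles), filled where the adjusted p was under 0.05. *Apob* and *Apoe* stay below 0 in every fit but are filled in only 2 of the 6 with a line left out, and *Fgb* moves from -0.31 to -3.53 without Myc_Utx 2D.

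Most of the wider set of plasma protein genes had few counts, with *Cp*, *Gc* and *Rbp4* among the exceptions. Of 73 further plasma protein genes written down for this comparison, 72 were in the table, 38 had at most 3 counts in every line, 11 had none in any line and 6 had at least 10 counts in all lines. Of the 13 tested, 3 were lower in Myc_Utx by edgeR and none was higher, where 7.69% and 6.99% of all tested genes were. The median log2 fold change of the 13 was -0.89 against -0.0117 over all genes. The 3 were *Cp* (ceruloplasmin, a copper-carrying ferroxidase, -1.66 with an SE of 0.26 and an adjusted p of 0.0185), *C3* (the central complement protein, -5.91 with an SE of 1.25 and an adjusted p of 0.0318) and *Igf1* (insulin-like growth factor 1, -3.30 with an SE of 0.56 and an adjusted p of 0.0203). *C3* had 3, 12 and 9 counts in Myc_Utx and 1371, 52 and 490 in Myc_p53, and *Igf1* had 2, 3 and 8 against 64, 52 and 51. Both needed the Myc_p53 lines to pass the filter on low counts, so the calls and the median describe the tested genes only. At an unadjusted p under 0.05 there was 1 higher, the acute-phase gene *Orm1*, and DESeq2 called 2 higher, *Orm1* and *Serpina6*. *Cp* and *Gc*, the vitamin D binding protein, had the most counts. *Cp* had 1254 to 1318 counts in Myc_Utx and 4102 to 6172 in Myc_p53. *Gc* had 2, 42 and 834 counts in Myc_Utx and 6490, 767 and 2780 in Myc_p53, so Myc_Utx 2D lay within the range of Myc_p53, and the log2 fold change of -3.02 had an SE of 1.65 and an adjusted p of 0.239. Per transcript length, *Gc* reached 551.9 CPM per kilobase in Myc_p53 1 and 213.4 in Myc_p53 3, in which *Alb* was at 0.967. Of the 51 genes of this list with a count in Myc_Utx, 22 were highest in Myc_Utx 2D by scaled level, 19 in 2B and 10 in 2A, and of the 16 that reached 10 counts in a Myc_Utx line, 10 were highest in 2D, 4 in 2B and 2 in 2A. By the same rule 6 of 8 housekeeping genes, 5 of 10 liver transcription factors and 8 of 19 lipoprotein and iron genes were highest in 2D. So were 1 of 3 enzymes, 1 of 5 cholangiocyte, 1 of 2 macrophage and 1 of 6 stellate markers. A tilt to 2D was therefore not particular to plasma protein genes. Plasma protein genes highest in 2D included *Rbp4* (retinol-binding protein, 319, 12 and 558 counts), *Hp* (haptoglobin, 40, 15 and 768) and *Agt* (angiotensinogen, 74, 180 and 563). These 3 genes, like *Fga*, *Fgg*, *Afm* and the kininogens, were picked out after their values had been seen.

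Most hepatocyte enzymes were near or below the detection limit. Of 28, 18 had at most 3 counts in every line and 6 had none. Of the 3 tested, none was lower by edgeR, at an unadjusted p under 0.05 or by DESeq2, and *Ass1*, which makes argininosuccinate in the urea cycle, was higher in Myc_Utx, at 792, 942 and 257 counts against 13, 15 and 36 in Myc_p53, a log2 fold change of 5.27 with an SE of 0.58 and an adjusted p of 0.0128. *Asl*, the next enzyme of the cycle, had 218 to 293 counts in all lines and an adjusted p of 0.479.

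Several transcription factors that act on plasma protein genes in liver were low as well. *Hnf4a* had 3, 3 and 0 counts in Myc_Utx and 64, 8 and 47 in Myc_p53, *Foxa2* had 3, 2 and 0 against 1, 1 and 12, and neither was kept by the filter. DESeq2, which keeps more genes, called *Hnf4a* lower, with an adjusted p of 0.00438. *Cebpa* was present in both groups, with a log2 fold change of 0.64 and an adjusted p of 0.541, and *Foxa1*, a relative of *Foxa2*, had 912, 272 and 1168 counts in Myc_Utx and 346, 400 and 609 in Myc_p53. Of 22 liver transcription factors, 11 were tested, with a median of -0.80. By edgeR 3 were lower in Myc_Utx and none higher, where 7.69% and 6.99% of all tested genes were. These were *Nr1h4* (the bile acid receptor, -3.63 with an SE of 0.89 and an adjusted p of 0.0447), *Zbtb20* and *Cebpd* (-1.51, adjusted p of 0.0242). *Nr1h4* had 2, 7 and 2 counts in Myc_Utx and 106, 11 and 63 in Myc_p53, and passed the filter on low counts only through the Myc_p53 lines. *Cebpb* was the 1 gene higher at an unadjusted p under 0.05 and by DESeq2.

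Genes that assemble lipoproteins, take them up or move iron were mostly well expressed. Of 23, 16 had at least 10 counts in every line, and 19 were tested, with a median log2 fold change of 0.08. Of these, 3 were higher and 1 lower in Myc_Utx, where 6.99% and 7.69% of all tested genes were. *Mttp*, the transfer protein that loads lipid onto the *Apob* product, had 28, 26 and 17 counts in Myc_Utx and 141, 107 and 87 in Myc_p53, and fell by 1.93 on the log2 scale, with an SE of 0.32 and an adjusted p of 0.0189. It moved in the same direction as *Apob*. *Lrp8*, a receptor for *Apoe* particles, was higher by 1.12 (SE 0.14, adjusted p of 0.0141). The ferritin chains *Ftl1* and *Fth1*, which store iron, were higher by 1.30 (SE 0.15, adjusted p of 0.0130) and 0.92 (SE 0.17, adjusted p of 0.0250). *Tfrc*, the receptor for the *Trf* product, had a log2 fold change of -0.0167 and an adjusted p of 0.973, and was named after its value had been seen.

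Markers of other liver cells were checked beside these results. Of 20 macrophage markers, 11 had more than 3 counts in every Myc_p53 line and 2 in every Myc_Utx line. Of 8 tested, 6 were lower in Myc_Utx, where 7.69% of all tested genes were, and these 6 passed the filter through the Myc_p53 lines. *Csf1r* had 0, 1 and 0 counts in Myc_Utx and 259, 39 and 243 in Myc_p53 (adjusted p of 0.0164), *Lyz2* had 0, 5 and 0 against 204, 104 and 337 (adjusted p of 0.0165), and *C1qc* had none against 23, 19 and 50 (adjusted p of 0.0188), which is at least 7.79-fold lower against a floor of 3 counts per library. The 1 that was higher, *Cd14*, stood at 39.8 ± 11.5 CPM in Myc_Utx and 19.8 ± 1.48 CPM in Myc_p53 (SD, n = 3), with an adjusted p of 0.0399 (edgeR). The median log2 fold change of the 8 was -4.49, or -4.30 with *C1qc* at that bound. Without *Cd14*, whose level exceeded that of the rest in Myc_Utx, the 19 other markers summed to 3.38 to 6.72 CPM in Myc_Utx and to 107.9, 47.4 and 122.1 CPM in Myc_p53 1, 2 and 3. Of the markers of resident Kupffer cells in the list, *Clec4f*, *Vsig4* and *Timd4* had 0 counts in all lines, while *Cd5l* had 5, 0 and 6 counts and *Marco* 2, 0 and 0 in Myc_p53 and both had 0 in Myc_Utx. Myc_p53 2 had the lowest summed marker level of its group, while its *Apoe* level of 22.3 CPM lay between theirs. The sum of the macrophage markers without *Cd14* moved with *Apoe*, *Apob* and *Trf* between the groups, and the part of these markers in these results was not tested. The cultures had been passaged until visibly clear of other cell types, so the source of these reads is not known. Of 12 cholangiocyte markers, 7 were tested and 3 were lower in Myc_Utx, where 7.69% of all tested genes were. These were *Prom1* at -6.36 (adjusted p of 0.0287), *Ggt1* at -4.26 (adjusted p of 0.0217) and *Muc1* at -3.10, also the median of the 7. All 3 passed the filter only through the Myc_p53 lines. Another 3 had log2 fold changes above 0, *Sox9* at 0.94 (unadjusted p of 0.0430 and adjusted p of 0.131, edgeR), *Cd24a* at 0.45 and *Spp1* at 0.21. The summed level overlapped, at 820.7 to 1684 CPM in Myc_Utx and 313.7 to 1764 in Myc_p53, most of it from *Spp1* and *Cd24a*. The part of the cholangiocyte markers in the results was not tested either. Of 12 stellate and fibroblast markers 6 were tested and none passed in edgeR, nor at an unadjusted p under 0.05, with a median of -1.85, and DESeq2 called 1, *Dcn*, lower. *Col3a1* had 8677, 12288 and 11488 counts in Myc_Utx and 65, 14680 and 518 in Myc_p53, and *Pdgfrb* had 874, 1454 and 517 against 33, 953 and 702, so the groups overlapped for both. None of 10 endothelial markers was kept by the filter. The most counted, *Vwf*, had 2, 5 and 1 counts in Myc_Utx and 7, 3 and 7 in Myc_p53, *Oit3* had 0, 3 and 0 against 4, 6 and 4, and the 10 summed to 0.444 to 2.43 CPM in Myc_Utx and 2.03 to 3.14 in Myc_p53.

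The likeness of patterns was measured over 9485 genes whose mean count reached 50. For each of the 3 most counted genes, the gene whose log2 CPM followed it most closely over the 6 lines was *Cdkn2a*, a cell cycle inhibitor locus, for *Apoe* (Pearson's r = 0.998), *Lpar6*, a lysophosphatidic acid receptor, for *Apob* (r = 0.998) and *Galns*, a lysosomal sulfatase, for *Fgb* (r = 0.968). *Cdkn2a* had 388, 528 and 216 counts in Myc_Utx and 2111, 2080 and 2511 in Myc_p53, the same order of groups and the same lowest line, Myc_Utx 2D, as *Apoe*. These values are descriptions over 6 lines that share the 2 groups, so genes that separate the groups sharply correlate with each other, and no p was computed.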

How the data were processed

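For 6 cell lines the authors deposited raw gene counts (Ensembl identifiers) that were not normalized, with a transcript length in bases as other annotation. The submitters' processing notes name Trimmomatic 0.36, STAR 2.5.3a, featureCounts 1.6.3, DESeq2 1.20.0 and mouse builds GRCm38 and mm10. The paper's RNA methods name HTSeq, a human build and a guide against Mll3 in place of *Kdm6a*, so the labels and the table were followed.

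Lines were grouped by genotype label. Counts were analysed with edgeR 4.0.16 in R 4.3.3: filterByExpr (minimum count 10), TMM and the quasi-likelihood F test, with p-values adjusted by Benjamini-Hochberg over all genes tested. SEs were derived from F, and 95% intervals use the t distribution of the same fit. Exact permutation tests were two-sided. Ratios of summed counts were scaled by the groups' total counts and carry exact binomial intervals (scipy 1.17.1). Alternatives were no filter, at least 10 counts in every line, DESeq2 size factors, total counts only, transcript length offsets (splines with 5 degrees of freedom), DESeq2 1.42.0 and leaving out each line. The procedure was tested on simulated data.

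The members and gene lists were chosen with earlier results of these data known. From each list the text names the 2 largest calls per direction and the 2 most counted genes, with *Zbtb20*, *Zhx2*, *Hnf4a*, *Foxa2* and *Cebpa* in any case and the nearest pattern of the 3 most counted members. Other genes were named after their values had been seen. Immunoblots, qPCR and chromatin data were not analysed here. Some results are not reported here.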

Additional observations from a re-analysis of the deposited data

How the results depend on the processing

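No paired analysis was possible because no replicate number links a Myc_Utx line to a Myc_p53 line. The direction and the call of *Apob* and *Apoe* held in every alternative that kept all lines and fitted them, with adjusted p-values of at most 0.0296 and 0.0168 (at least 10 counts in every line leaves *Apob* out by construction). DESeq2 called 1281 genes higher and 1578 lower. Genes lower in Myc_Utx under no filter and under DESeq2 numbered 5 and 5 of the other plasma proteins, 5 and 6 of the transcription factors, 2 and 4 of the lipoprotein and iron genes, 6 and 6 of the cholangiocyte markers and 1 and 1 of the stellate markers, and 2 and 2 other plasma proteins were higher. DESeq2 also called 1 transcription factor and 5 lipoprotein and iron genes higher. With at least 10 counts in every line, 1 of the 10 genes (*Apoe*), 1 other plasma protein, 0 cholangiocyte and 0 macrophage markers were lower, since fewer genes were tested. With length offsets 0 macrophage markers were higher, and the cause was not tested. Leaving out 1 line, with fewer samples, gave 3 to 836 genes higher and 1 to 1118 lower. Of the 10 genes 0 to 3 were lower (*Apob*, *Apoe* and *Trf* without Myc_p53 1) and 0 to 0 higher. Counts higher and lower were 0 to 1 and 0 to 4 for other plasma proteins, 0 to 1 and 0 to 1 for enzymes, 0 to 1 and 0 to 7 for transcription factors, 0 to 3 and 0 to 3 for lipoprotein and iron genes, 0 to 0 and 0 to 7 for macrophage markers, 0 to 0 and 0 to 6 for cholangiocyte markers and 0 to 1 and 0 to 1 for stellate markers. The share of counts of the 10 genes was 0.00158 to 0.00498% in Myc_Utx and 0.00714 to 0.00895% in Myc_p53. The sign changed for *Alb* without Myc_Utx 2B (-0.0854, in a range of -0.0854 to 0.96) and for *Fgb* without Myc_Utx 2A (0.23) or 2B (0.26, in a range of -3.53 to 0.26). Depth limits values at or under 3 counts, which is 0.425 to 0.666 CPM.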
